A study of Mus musculus with 9 samples.

Results

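The genes described here encode the subunits of the mitochondrial respiratory chain and of ATP synthase. They were chosen by name from the table of estimated reads per gene: Ndufa, Ndufb, Ndufc, Ndufs and Ndufv followed by a digit for complex I, Sdha to Sdhd for complex II, names starting with Uqcr for complex III, Cox4 to Cox8 for complex IV, Atp5 for ATP synthase, and mt-Nd, mt-Co, mt-Cytb and mt-Atp for the genes of the mitochondrial genome. The rule took 102 of the 57238 entries, of which 89 are nuclear genes and 13 are mitochondrial, and it left out 8 entries with a pseudogene suffix in the name. The libraries came from wild-type C57BL/6 bone marrow-derived dendritic cells (BMDCs), which had been cultured in GM-CSF (by the labels, 6 days at 20 ng/ml). CTR libraries came from untreated BMDCs, NE libraries from BMDCs given exosomes of the mouse fibroblast line NIH 3T3, and TDE libraries from BMDCs given tumor-derived exosomes, in both cases for 24 h. Each of the 3 groups had 3 libraries. The labels do not name the tumor cell line that released the exosomes, and they do not say whether the libraries of a group came from separate cultures or animals, so p-values measure only the spread between these libraries, which may be technical.

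The respiratory chain passes electrons from NADH and succinate through complexes I, II, III and IV to oxygen and pumps protons across the inner mitochondrial membrane, and ATP synthase uses the returning protons to make ATP. Most subunits are encoded in the nucleus and imported, whereas a small core is transcribed from both strands of the mitochondrial genome as long precursors that are cut into single RNAs and also hold the mitochondrial rRNAs. Dendritic cells shift between glycolysis and oxidative phosphorylation with their state of activation, and whether exosomes of tumor cells move that balance was a question of the study. RNA levels alone were measured here, not protein, respiration or mitochondrial mass. In bulk libraries, fewer cells of a type and less RNA per cell cannot be told apart.

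A stretch of mitochondrial DNA also lies in the nuclear genome, on the minus strand of chromosome 1, and its entries in the table held reads of several mitochondrial genes. Sequence comparison of the GENCODE transcripts found 7 mitochondrial protein genes with a nuclear copy of at least 99% identity over at least 80% of the copy. The copies of mt-Atp6, mt-Co2, mt-Co3, mt-Nd4l and mt-Nd4 were identical over their whole aligned length. Those of mt-Co1 and mt-Nd3 differed at 1 aligned base each. The stretches around these 2 bases are shown, 5′ to 3′ in the direction of the RNA, because these are the only aligned bases at which gene and copy differ. Capitals mark the base that differs, and positions are counted from 1 at the first base of the mitochondrial gene. The substitutions are A1066T in mt-Co1 and T3C in mt-Nd3, with the mitochondrial base first. Positions are those of GRCm38.
mt-Co1, chrM:6390-6408, plus strand: ggaAttgttttatccaact
Gm29216, chr1:24616170-24616188, minus strand: ggaTttgttttatccaact
mt-Nd3, chrM:9459-9476, plus strand: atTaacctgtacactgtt
Gm28438, chr1:24613102-24613119, minus strand: atCaacctgtacactgtt

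Most reads of mt-Co2, mt-Co3 and mt-Atp6 were listed under their copies. Of the reads of mt-Co2, a core subunit of cytochrome c oxidase that takes electrons from cytochrome c, between 96.3% and 99.7% per library were listed under Gm28661. The row of mt-Atp6, the proton channel subunit of ATP synthase, held 6911.95 reads in CTR replicate 1 and 0 in the other 8 libraries, whose reads were all listed under Gm10925. For mt-Nd3 the copy took 0% of the reads in CTR replicate 1 and 55.4% to 72.8% in the others. For mt-Co1, the catalytic subunit of cytochrome c oxidase, the copy took 74.3% in CTR replicate 1 and 1.84% to 5.11% in the others, and Gm28439, the copy of mt-Nd4, had 0 reads in all 9 libraries. The 7 near-identical copies together held 1579252.67 reads over the 9 libraries, and 10 other copies of at least 90% identity held 56.09. Results for mitochondrial genes are therefore given with the reads of the near-identical copies added to their gene, an alternative chosen after the data were seen, beside the values of the rows as deposited.

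**Figure D1:**
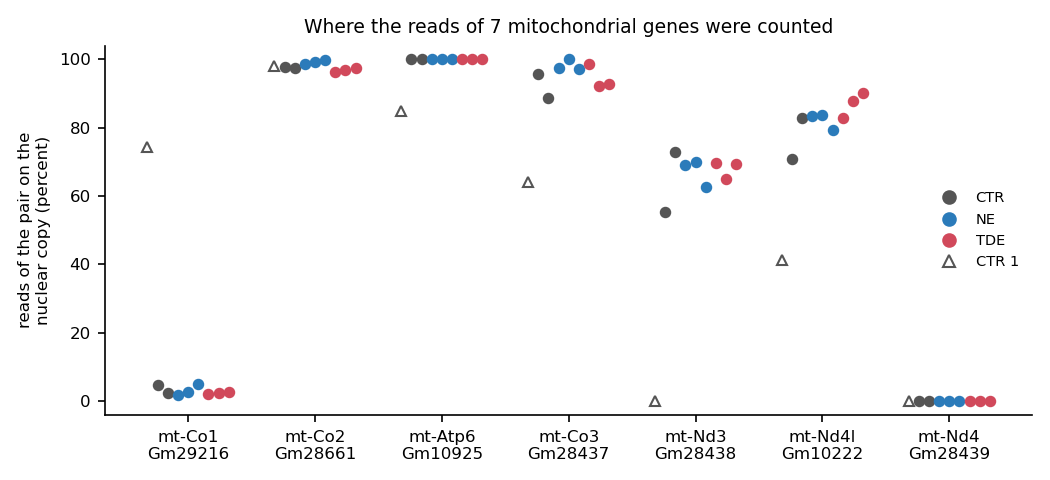
Percent of the reads of a mitochondrial gene and its near-identical nuclear copy that were listed under the copy (y axis), for 7 genes and their copies (x axis), 1 point per library. Grey points are CTR, blue NE, red TDE and the open triangle CTR replicate 1. For mt-Co2 and mt-Atp6 nearly all reads lie on the copy, for mt-Nd4 none do, and CTR replicate 1 differs from the other 8 libraries at mt-Co1, mt-Atp6, mt-Co3, mt-Nd3 and mt-Nd4l.

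The estimated reads on genes summed to 17469782 to 21092943 in a library, and 15028 genes passed the filter on low counts. CTR replicate 1 stood apart. Its normalized log2 CPM (CPM, reads scaled to a common library size after TMM normalization) correlated with the other libraries at Pearson r = 0.85 to 0.91, against 0.95 or more among the other 8, across genes, which are not independent replicates. Genes under 700 bases lay at a median of 1.60 above the other libraries on the log2 scale in this library and genes over 5000 bases at -0.87. A weaker trend in the same direction was present in NE replicate 3 (0.23 and -0.21) and CTR replicate 2 (0.13 and -0.12). In the TDE libraries these medians lay between -0.04 and 0.02. Leaving out CTR replicate 1 does not remove this weaker trend, and its part in the calls of short genes was not tested. Respiratory chain subunits are short: 54 of the 80 nuclear members that passed the filter were under 1000 bases, 67.5%, against 10.9% of all tested genes. Results are given with and without CTR replicate 1. Sets of cell type markers also moved with TDE treatment. Without CTR replicate 1, where 16.4% of all genes were higher and 18% lower in TDE-treated than in CTR BMDCs, 9 of 11 tested dendritic cell markers, 10 of 12 neutrophil markers and 10 of 10 eosinophil and basophil markers were lower, and 1 neutrophil marker was higher. Summed levels of marker sets were scaled to library totals alone, without TMM, unlike the other CPM values. Unlike the counts of markers, the ranges of these sums for CTR BMDCs include CTR replicate 1. The sum of the dendritic cell markers was 2620 to 2834 CPM in TDE-treated BMDCs, 4934 to 6012 in NE-treated and 5242 to 11020 in CTR BMDCs. That of the neutrophil markers was 3680 to 4041, 8545 to 11711 and 8232 to 21935 CPM in the same order. Cd209a, a further dendritic cell marker, was at or under 3 reads in every library. Of macrophage and monocyte markers 7 of 12 were lower and 2 higher, of lymphoid markers 5 of 6 were lower, and of erythroid markers 1 of 3 was higher. Of fibroblast markers 2 of 6 were higher and 1 lower, and of epithelial markers 1 of 2 was lower, with sums of at most 11.8 and 13.7 CPM in any library. The part of these markers in the results below was not tested.

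No nuclear subunit passed the test in TDE-treated BMDCs against CTR or NE-treated BMDCs in the fit to all 9 libraries. Of the 80 nuclear members tested, 0 passed an adjusted p-value of 0.05 in edgeR's quasi-likelihood test in TDE-treated against CTR BMDCs, whereas 16.9% of all tested genes did (7.57% higher and 9.34% lower). Unadjusted, 20 had a p-value under 0.05. The median log2 fold change of the nuclear members was -0.96, against -0.05 for all genes, and 74 of 80 lay below 0. Against NE-treated BMDCs, 0 of 80 passed, with a background of 13.9% of all genes (6.73% higher and 7.21% lower), 0 had an unadjusted p-value under 0.05, and the median was -0.01. DESeq2 called 4 nuclear members lower in TDE-treated than in CTR BMDCs, Ndufa2, Ndufa4, Atp5k and Cox5b, named here after their values were seen, where it called 26.7% of all genes (11.6% higher and 15.1% lower), and it called 0 against NE, where it called 20.1% (10.2% higher and 9.95% lower).

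Without CTR replicate 1 the median of -0.96 became 0.03. In that library, 76 of the 80 nuclear members had their highest level of all 9 libraries, and the exceptions were Sdha, Sdhd, Ndufs1 and Uqcrc2, with lengths of 1231 to 2900 bases. Atp5e, the epsilon subunit of ATP synthase with a length of 421 bases, stood at 921 CPM in CTR replicate 1 and between 52.3 and 90.8 CPM in the other 8 libraries. Cox4i1, with the highest level per length of the nuclear members, stood at 1351 CPM there and between 239 and 368 CPM elsewhere. Ndufs1, the largest subunit of complex I, went the other way, with 24.6 CPM in CTR replicate 1 and 49.7 to 62.7 CPM elsewhere. Over all nuclear members, the percentage of a library's reads was 1.42% in CTR replicate 1 and 0.50% to 0.666% in the other libraries, with 95% Wilson intervals at most 0.0101 percentage points wide, which cover counting error only.

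**Figure D2:**
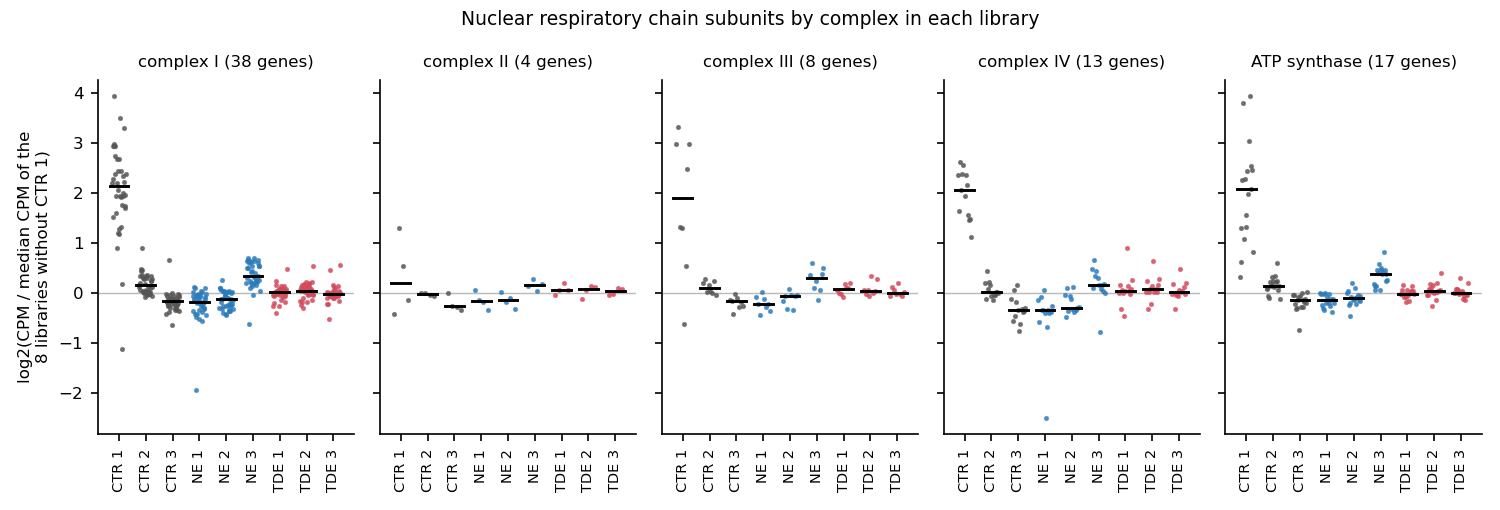
Level of each nuclear subunit in each library relative to its median over the 8 libraries without CTR replicate 1 (y axis, log2 ratio of CPM), by complex (panels) and library (x axis). Points are genes and black bars the median of a complex in a library. CTR replicate 1 lies far above the others in complexes I, III and IV and ATP synthase, and NE replicate 3 slightly above.

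With CTR replicate 1 left out, the nuclear subunits had a median log2 fold change of 0.03 in TDE-treated against CTR BMDCs and -0.02 against NE-treated BMDCs, and only a few members passed the test. Against CTR, 4 members rose and 1 fell, 6.25% of the 80, where 34.4% of all 15301 tested genes passed (16.4% higher and 18% lower). Against NE, 3 rose and 4 fell, 8.75%, with a background of 40.7% (19.2% higher and 21.5% lower). The share of called members was below that of all genes in both comparisons. The split of directions turned with the scaling: on library totals without TMM, 1 member was higher and 4 were lower against CTR, and 3 were higher and 9 lower against NE. The share of all genes called on library totals is not given here. The comparisons share the TDE libraries. All 3 TDE libraries lay above the 5 CTR and NE libraries for 7 nuclear members and below them for another 7, 8.75% each, whereas 24.4% of all tested genes lay above and 25.1% below.

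**Figure D3:**
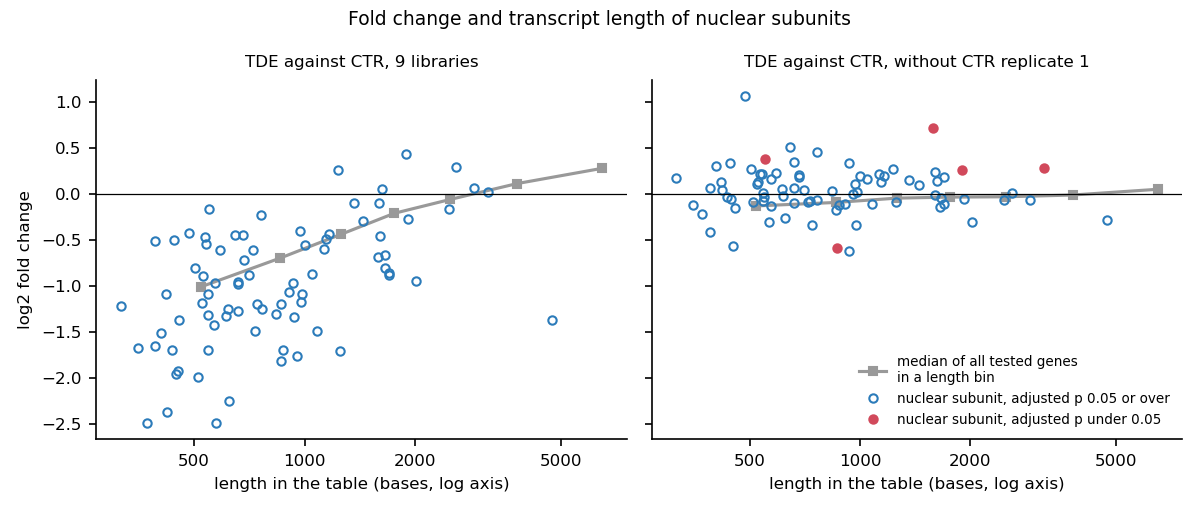
Log2 fold change in TDE-treated against CTR BMDCs (y axis) against the length of the gene in the table (x axis, log scale), with all 9 libraries (left) and without CTR replicate 1 (right). Circles are the 80 nuclear subunits, filled red where the adjusted p-value was under 0.05, and grey squares are medians of all tested genes in bins of length. With all 9 libraries the short genes lie lowest and no subunit passes the test, and without CTR replicate 1 the medians of all bins lie near 0.

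In complex I, Ndufv3 rose with the lowest adjusted p-value of the nuclear members. It, Ndufa10 and Ndufa12 were named after their values were seen. Ndufv3 encodes a small accessory subunit near the site where NADH is oxidized (chr17:31520115-31531331, GRCm38). Its level was 45.5 and 37.0 CPM in CTR replicates 2 and 3 and 248 CPM in CTR replicate 1. It was 35.1, 37.8 and 49.1 CPM in the NE libraries and 65.7, 69.2 and 70.2 CPM in the TDE libraries. All 3 TDE libraries were above the 5 other libraries without CTR replicate 1. The log2 fold change was 0.72 ± 0.15 (SE) against CTR (adjusted p = 0.00545) and 0.74 ± 0.13 against NE (adjusted p = 0.00195). With all 9 libraries it was -0.69 ± 0.64 against CTR and did not pass.

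Ndufa4, Ndufa10 and Ndufa12 were lower in TDE-treated than in NE-treated BMDCs. Ndufa4, named as a complex I subunit and later placed in complex IV, stood at 35.9 and 24.0 CPM in CTR replicates 2 and 3, at 28.2, 31.2 and 39.6 CPM in NE and at 19.7, 23.2 and 18.3 CPM in TDE libraries, with 173 CPM in CTR replicate 1. It fell by 0.70 ± 0.18 on the log2 scale against NE (adjusted p = 0.0124), and against CTR its change was -0.57 ± 0.20 (adjusted p = 0.0527). Ndufa10, an accessory subunit of the membrane arm, stood at 59.9 and 52.8 CPM in CTR replicates 2 and 3, 54.0 to 66.0 CPM in NE and 44.6 to 47.7 CPM in TDE libraries. It fell by 0.37 ± 0.09 against NE (adjusted p = 0.0122), and against CTR its change was -0.30 ± 0.10 (adjusted p = 0.0503). Ndufa12, an accessory subunit of the matrix arm, fell by 0.52 ± 0.16 against NE (adjusted p = 0.0284), from 11.3 to 16.9 CPM in NE to 9.17 to 9.53 CPM in TDE libraries. Its level was 12.6 and 10.4 CPM in CTR replicates 2 and 3, and the change against CTR did not pass (-0.30 ± 0.18, adjusted p = 0.223). For these 3 genes every TDE library lay below all CTR and NE libraries once CTR replicate 1 was left out. The core subunits that carry the flavin and the first iron-sulfur clusters gave no call. Ndufv1 stood at 38.1 to 52.7 CPM in CTR replicates 2 and 3 and the NE libraries and 43.7 to 45.1 CPM in the TDE libraries, and Ndufs1 at 49.7 to 62.7 and 50.2 to 53.4 CPM.

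Complex II, succinate dehydrogenase, joins the tricarboxylic acid cycle to the chain and has no mitochondrially encoded subunit. Sdhc, a membrane anchor, stood at 84.4, 56.0 and 47.7 CPM in CTR, 51.2, 54.2 and 59.1 CPM in NE and 65.9, 63.6 and 61.9 CPM in TDE libraries. The TDE libraries were above the others except CTR replicate 1, and the log2 fold change against CTR without that library was 0.29 ± 0.10 (adjusted p = 0.0456). Against NE it was 0.21 ± 0.09 (adjusted p = 0.0800). Sdhd, the other anchor, had 99.8, 104 and 102 CPM in TDE libraries and 75.7 to 109 CPM in the 5 others, and the groups overlapped because of NE replicate 3. Sdha, the flavoprotein that oxidizes succinate, stood at 191 to 202 CPM in TDE and 206 to 228 CPM in the 5 other libraries, a log2 difference of -0.07 ± 0.07 from CTR that did not pass. Sdhb, the iron-sulfur subunit, was at 83.9 to 88.1 CPM in TDE libraries, within the 71.3 to 103 CPM of the 5 others.

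In complex III, which passes electrons from ubiquinol to cytochrome c, Uqcrc2 rose. Uqcrc2, a core subunit on the matrix side (chr7:120635176-120659524), stood at 84.8 and 77.0 CPM in CTR replicates 2 and 3, 53.7 CPM in CTR replicate 1, 76.2, 79.9 and 75.0 CPM in NE and 94.0, 104 and 94.3 CPM in TDE libraries. The TDE libraries were above all 6 others. Its log2 fold change was 0.26 ± 0.08 against CTR (adjusted p = 0.0384) and 0.33 ± 0.07 against NE (adjusted p = 0.00642) without CTR replicate 1. With all 9 libraries it was 0.44 ± 0.17 against CTR and did not pass (adjusted p = 0.114). An exon of Pdzd9 overlaps Uqcrc2 on the opposite strand. Uqcrc1, its partner in the core, had 94.0 to 97.5 CPM in TDE and 97.2 to 117 CPM in the 5 other libraries, and Uqcrfs1, the Rieske iron-sulfur protein, 82.1 to 89.1 and 65.8 to 86.8 CPM. Neither passed.

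Complex IV, cytochrome c oxidase, gave a call in each direction. Cox8a, a small subunit of the membrane domain (chr19:7215153-7217616), stood at 237, 108 and 88.5 CPM in CTR, 90.5, 89.5 and 109 CPM in NE and 130, 133 and 125 CPM in TDE libraries. Apart from CTR replicate 1, the TDE libraries lay above all others, and the log2 fold change was 0.38 ± 0.11 against CTR (adjusted p = 0.0299) and 0.42 ± 0.10 against NE (adjusted p = 0.0102). Cox5b, a zinc-binding subunit that faces the matrix (chr1:36691449-36693681), moved the other way. It stood at 391, 86.3 and 66.5 CPM in CTR, 60.6, 68.4 and 100 CPM in NE and 51.2, 51.2 and 51.4 CPM in TDE libraries, below every other library. It fell by 0.59 ± 0.20 against CTR (adjusted p = 0.0461) and by 0.59 ± 0.18 against NE (adjusted p = 0.0275). With all 9 libraries the change of Cox5b against CTR was -1.82 ± 0.62 and did not pass (adjusted p = 0.0788). Cox5a, which binds next to Cox5b, was higher in TDE libraries, 99.1, 105 and 99.9 CPM against 59.5 to 95.3 CPM in the 5 others, but did not pass (log2 fold change 0.51 ± 0.20 against CTR, adjusted p = 0.0795).

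**Figure D4:**
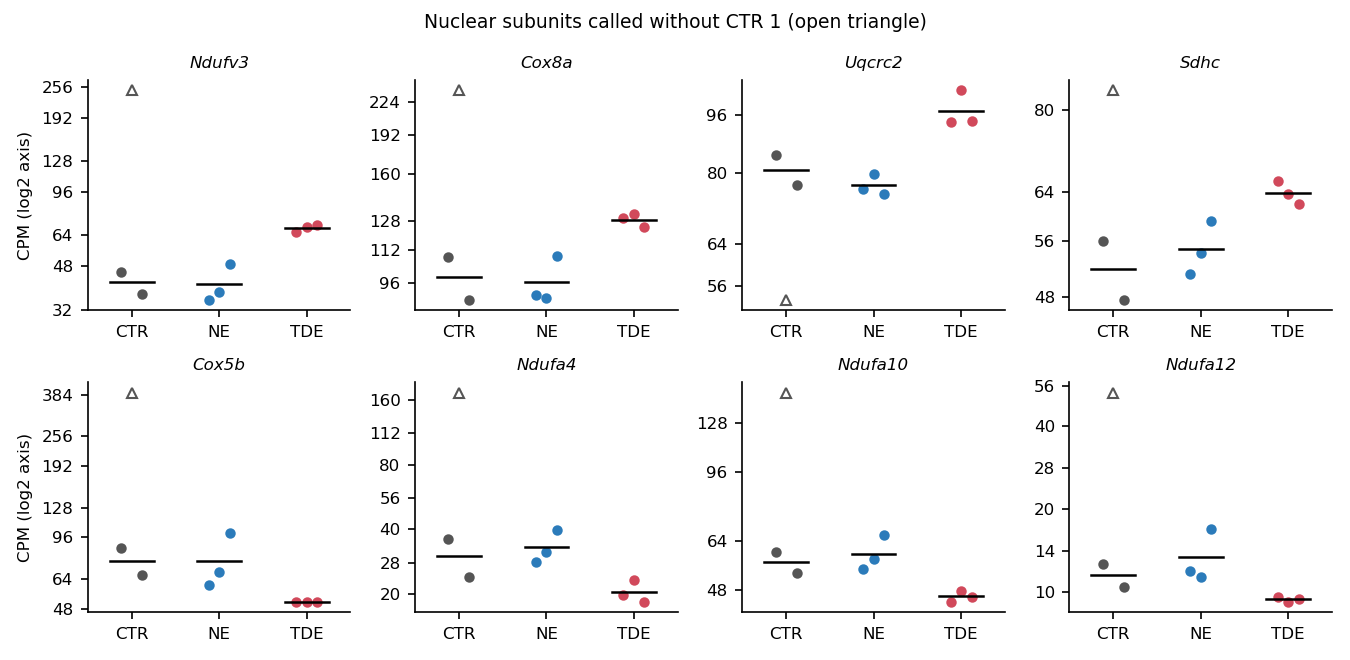
Normalized level in CPM (y axis, log2 scale) of the 8 nuclear subunits called in TDE-treated against CTR or NE-treated BMDCs without CTR replicate 1. Points are libraries, bars are group means without CTR replicate 1, and the open triangle is CTR replicate 1. The TDE libraries lie above the 5 others for Ndufv3, Cox8a, Uqcrc2 and Sdhc and below them for Cox5b, Ndufa4, Ndufa10 and Ndufa12, while CTR replicate 1 is the highest library for all but Uqcrc2.

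None of the 17 ATP synthase members tested passed in either comparison without CTR replicate 1. Atp5a1 and Atp5b, which form the catalytic head, stood at 412 to 425 and 358 to 367 CPM in TDE libraries and at 416 to 486 and 355 to 402 CPM in the 5 others. Log2 fold changes against CTR were -0.07 ± 0.08 and -0.05 ± 0.07. Over the 17 members, changes against CTR ranged from -0.33 to 0.34 with a median of 0.00.

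Further members passed when a curve of level against gene length was removed from each library. With these offsets and without CTR replicate 1, an alternative added after the data were seen, 22 nuclear members rose and 5 fell against CTR, 33.8% of the 80, where 42.9% of all genes passed (21.7% higher and 21.1% lower), and 26 rose and 8 fell against NE, 42.5%, with 49% of all genes (24.7% higher and 24.3% lower). By complex, the members that rose against CTR were 7 of 38 tested in complex I, 3 of 4 in complex II and 3 of 8 in complex III. They were 7 of 13 in complex IV and 2 of 17 in ATP synthase, where 21.7% of all genes were higher. Cox5a rose by 0.61 ± 0.09 (adjusted p = 0.000471), Ndufv3 by 0.76 ± 0.09 (adjusted p = 0.000143) and Cox8a by 0.49 ± 0.06 (adjusted p = 0.000123) on the log2 scale. Cox7a2, the isoform of non-muscle tissues, and Cox7a2l rose by 0.45 ± 0.12 (adjusted p = 0.0146) and 0.27 ± 0.07 (adjusted p = 0.0114). Cox5b fell by 0.52 ± 0.10 (adjusted p = 0.00259) and Ndufa4 by 0.42 ± 0.11 (adjusted p = 0.00928). Both lie in the group that fell, with Ndufs8, Ndufa10 and Atp5j. The median over all nuclear members was 0.11 against CTR and 0.09 against NE, with 0.00 for all genes in both. With the offsets and all 9 libraries, 8 members rose and 3 fell against CTR, 13.8%, with a background of 24.9% (11.4% higher and 13.5% lower), and the median was -0.14. Against NE, 6 rose and 1 fell, 8.75%, with a background of 21.1% (10.6% higher and 10.5% lower).

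Isoforms known from muscle, testis or hypoxia were at the detection floor or at low levels above it. The rule found 9 nuclear members that did not pass the filter, and none of them had more than 3 reads in any library. They were Cox4i2, an isoform tied to hypoxia and lung, Cox6a2 and Cox8b of heart and skeletal muscle, Cox7b2 and Cox8c of testis, and Cox6c2, Ndufa11b, Ndufs6b and a second entry for Atp5o. On the scale of the CPM values, 3 reads correspond to 0.135 to 0.190 CPM, depending on the library. Ndufa4l2, a paralog of Ndufa4 induced by hypoxia, had 0.159 CPM, which is 3 reads, in NE replicate 1 and 0.398 to 3.17 CPM in the others, and its exons overlap those of Shmt2 on the opposite strand. Cox7a1, the muscle isoform, stood at 0.836 to 1.11 CPM in TDE libraries and 0.106 to 0.651 CPM in the 5 others, and did not pass against CTR (log2 fold change 1.07 ± 0.55, adjusted p = 0.173) or NE (1.36 ± 0.51, adjusted p = 0.0603). Cox6b2, the testis isoform, had 0.554 to 0.945 CPM outside CTR replicate 1, while Cox6b1 had 59.7 to 101 CPM.

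Levels per length, as the mean CPM per kilobase over the 8 libraries without CTR replicate 1, separated the abundant from the rare members. In complex IV they ran from 1.26 for Cox7a1 to 361 for Cox4i1, and in complex III from 45.2 for Uqcrc2 to 188 for Uqcrh. In complex I they ran from 0.693 for Ndufa4l2 to 106 for Ndufa6, in complex II from 18.1 for Sdhc to 74.8 for Sdhd, and in ATP synthase from 2.05 for Atp5s to 194 for Atp5b. The mitochondrial genes with copies added were higher by this measure, from 626 for mt-Nd4l to 8898 for mt-Co1. With CTR replicate 1 in the mean, Ndufa2 was highest in complex I with 158 and Atp5e in ATP synthase with 384.

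Promoters of Ndufv3 and Cox8a, which rose, and of Cox5b and Ndufa4, which fell, are shown to set sequences of members that moved in opposite directions side by side. They were chosen after their values were seen. Each runs from 100 bases before the RefSeq start site to the base before it on the gene's own strand (GRCm38.p6), with capitals for a match to a motif. The motifs searched were the core of the nuclear respiratory factor NRF1 (TGCGCA, which is its own reverse complement), the ETS motif bound by GABP (CCGGAAG) and that of YY1 (AAGATGGCG), on both strands.
Ndufv3, chr17:31520015-31520114, plus strand: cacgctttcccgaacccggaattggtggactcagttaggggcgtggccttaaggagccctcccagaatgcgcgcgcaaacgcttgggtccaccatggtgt
Cox8a, chr19:7217617-7217716, minus strand: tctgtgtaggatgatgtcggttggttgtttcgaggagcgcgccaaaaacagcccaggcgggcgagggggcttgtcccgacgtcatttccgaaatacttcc
Cox5b, chr1:36691387-36691486, plus strand: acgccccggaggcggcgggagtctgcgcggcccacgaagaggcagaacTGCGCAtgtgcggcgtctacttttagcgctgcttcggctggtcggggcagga
Ndufa4, chr6:11907451-11907550, minus strand: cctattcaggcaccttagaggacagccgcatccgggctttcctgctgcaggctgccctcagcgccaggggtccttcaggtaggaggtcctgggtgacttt

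The NRF1 core lies 52 bases before the start of Cox5b. Cox8a holds the ETS motif on the opposite strand at 5 bases before the start, running across it, so that it is not in capitals. Over the whole promoter table, from 250 bases before to 50 after the start, a promoter was found for 66 of the 80 nuclear members. Of these, 18 held the NRF1 core (27.3%), against 14.3% of the promoters of all tested genes. The ETS motif was in 15 (22.7%, against 18.3%) and the YY1 motif in 6 (9.09%, against 3.17%). A match is a description of the letters and not of binding.

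Single mitochondrial genes passed in both directions, at shares near those of all genes. With copies added and without CTR replicate 1, mt-Nd1, mt-Nd2, mt-Nd3 and mt-Cytb fell and mt-Co1 rose in TDE-treated against CTR BMDCs, 5 of 13 genes or 38.5%, where 34.4% of all genes passed. Against NE-treated BMDCs, mt-Nd6 fell too, 6 of 13 or 46.2%, with a background of 40.7%. Both shares lay near those of all genes, so these counts are no result about the members as a set. Before copies were added, 16.4% of all genes were higher and 18% lower against CTR, and 19.2% and 21.5% against NE. With copies added, all 3 TDE libraries lay above the 5 CTR and NE libraries without CTR replicate 1 for 1 gene (7.69%). They lay below them for 5 genes (38.5%), where 24.4% of all tested genes lay above and 25.1% below. The median log2 fold change was -0.30 against CTR and -0.25 against NE. With all 9 libraries and copies added, mt-Nd3 alone of the 13 passed against CTR (log2 fold change -1.40 ± 0.34, adjusted p = 0.0278), where 16.9% of all genes passed. Against NE, 0 of 13 passed, with a background of 13.9%, and 3 had an unadjusted p-value under 0.05.

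mt-Co1, the catalytic subunit of complex IV, stood at 12236 and 12155 CPM in CTR replicates 2 and 3, 12656, 12805 and 12958 CPM in NE and 16311, 14840 and 16013 CPM in TDE libraries, with 4923 CPM in CTR replicate 1. The TDE libraries lay above all others. The log2 fold change was 0.36 ± 0.07 against CTR (adjusted p = 0.00559) and 0.29 ± 0.07 against NE (adjusted p = 0.00722). With the replicate block, mt-Co1 just missed the threshold against CTR (0.35 ± 0.10, adjusted p = 0.0512) and passed against NE (0.29 ± 0.09, adjusted p = 0.0436). The other core subunits of complex IV gave no call in this fit. mt-Co2 stood at 4091 to 4361 CPM in TDE libraries and 3618 to 4984 CPM in the 5 others, and mt-Co3 at 2260 to 2447 and 2389 to 3294 CPM, and neither passed. With length offsets as well, mt-Co2 rose by 0.17 ± 0.05 against CTR (adjusted p = 0.0264) but did not pass against NE. Under that setting mt-Co3 fell by 0.16 ± 0.05 against NE (adjusted p = 0.0288) but did not pass against CTR. The exon of mt-Co1 overlaps that of mt-Ts1 on the opposite strand.

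Among the complex I genes, mt-Nd1, mt-Nd2 and mt-Nd3 fell, which encode membrane subunits of the proton-pumping arm. mt-Nd1 stood at 1368 and 1339 CPM in CTR replicates 2 and 3, 1441, 1416 and 1577 CPM in NE and 971, 868 and 926 CPM in TDE libraries, and at 708 CPM in CTR replicate 1. It fell by 0.56 ± 0.08 against CTR (adjusted p = 0.000662) and by 0.69 ± 0.07 against NE. mt-Nd2 stood at 749 and 738 CPM, then 790, 792 and 864 CPM, then 507, 434 and 495 CPM in the same order, and fell by 0.64 ± 0.08 against CTR and 0.78 ± 0.08 against NE. In CTR replicate 1 mt-Nd2 stood at 297 CPM, below every TDE library. With all 9 libraries, mt-Nd1 and mt-Nd2 did not pass against CTR (log2 fold changes -0.30 ± 0.24 and -0.31 ± 0.31). mt-Nd3 stood at 309 and 275 CPM, then 290, 287 and 388 CPM, then 164, 161 and 162 CPM, with 703 CPM in CTR replicate 1, and fell by 0.86 ± 0.13 against CTR (adjusted p = 0.000979) and by 0.99 ± 0.12 against NE. For these 3 genes every TDE library was below the 5 CTR and NE libraries, and for mt-Nd3 also below CTR replicate 1.

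mt-Nd4, mt-Nd5 and mt-Nd4l, which encode further subunits of the same arm, did not pass. mt-Nd4 stood at 4449 to 5119 CPM in TDE libraries and 4606 to 5768 CPM in the 5 others, and mt-Nd5 at 1457 to 1759 and 1564 to 2184 CPM. mt-Nd6, the single protein gene on the other strand, stood at 265 to 280 CPM in TDE libraries and 329 to 511 CPM in the 5 others. It fell by 0.55 ± 0.16 against NE (adjusted p = 0.0242) but not past the threshold against CTR (-0.48 ± 0.18, adjusted p = 0.0673). With length offsets as well, mt-Nd6 also passed against CTR (-0.37 ± 0.07, adjusted p = 0.0019). mt-Cytb, the core of complex III, stood at 2396 and 2351 CPM in CTR replicates 2 and 3, 2480, 2540 and 2510 CPM in NE and 1771, 1555 and 1719 CPM in TDE libraries, and fell by 0.51 ± 0.07 against CTR (adjusted p = 0.000923) and by 0.59 ± 0.07 against NE. In CTR replicate 1 mt-Cytb stood at 815 CPM, below every TDE library. With all 9 libraries its change against CTR was -0.14 ± 0.35 and did not pass. mt-Atp6 and mt-Atp8, the mitochondrial subunits of ATP synthase, stood at 1185 to 1201 and 132 to 158 CPM in TDE libraries, within the 1129 to 1909 and 135 to 201 CPM of the 5 others but for the lowest mt-Atp8 value.

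**Figure D5:**
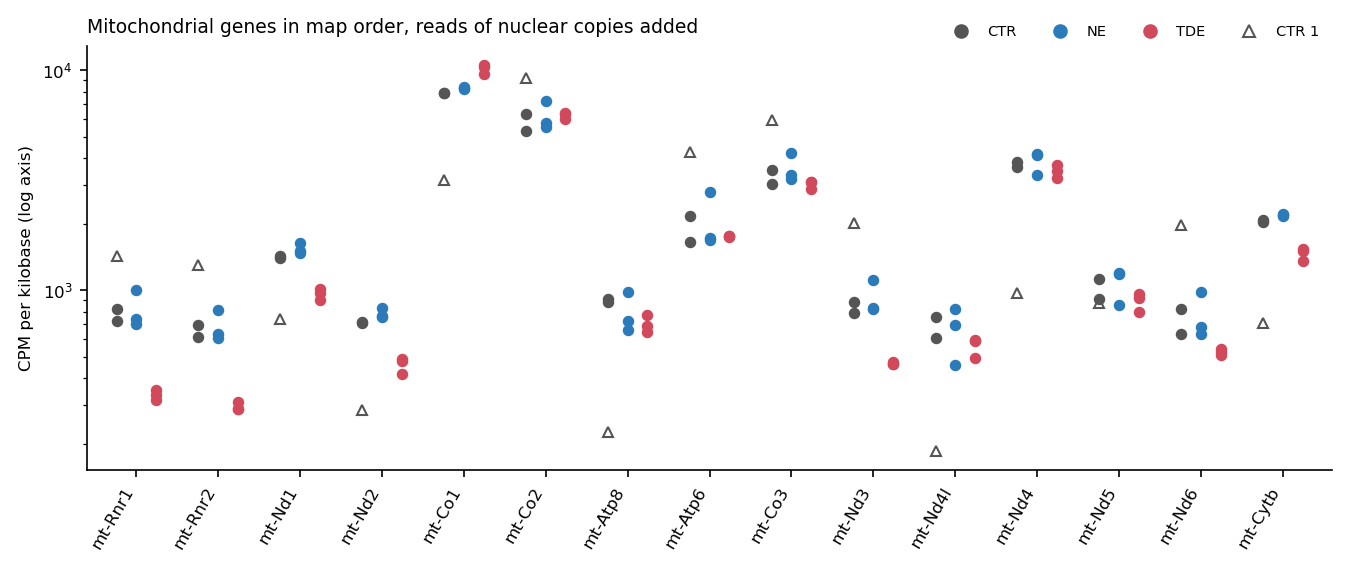
Level of the mitochondrial rRNA and protein genes in order of position along the mitochondrial genome (x axis), as CPM per kilobase with reads of near-identical copies added (y axis, log scale). Points are libraries of CTR (grey), NE (blue) and TDE (red), and open triangles CTR replicate 1. Apart from CTR replicate 1, TDE libraries lie below the others at mt-Rnr1, mt-Rnr2, mt-Nd1, mt-Nd2, mt-Nd3, mt-Nd6 and mt-Cytb, above them at mt-Co1, and overlap them at mt-Co2, mt-Atp6, mt-Nd4 and mt-Nd5.

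Calls from the rows as deposited differed for the genes with copies. In the fit to all 9 libraries, mt-Nd3 and mt-Nd4l were lower in TDE-treated than in CTR BMDCs (log2 fold changes -2.55 ± 0.75 and -0.92 ± 0.27, adjusted p = 0.0498 and 0.0494). In the same fit, mt-Co2 was higher in TDE-treated than in NE-treated BMDCs (log2 fold change 2.11, adjusted p = 0.0104). Of all genes, 16.9% passed against CTR and 13.9% against NE. The deposited row of mt-Co2 stood at 118, 102 and 94.3 CPM in CTR, 50.5, 27.3 and 14.8 CPM in NE and 163, 125 and 112 CPM in TDE libraries, with the rest of its reads under Gm28661. With copies added, mt-Co2 stood 0.01 ± 0.22 from NE on the log2 scale (adjusted p = 0.992), and mt-Nd4l 0.11 ± 0.45 from CTR (adjusted p = 0.868). Without CTR replicate 1, the deposited rows gave 1 mitochondrial gene higher and 5 lower of 12 against CTR, where 16.4% of all genes were higher and 18% lower. Against NE they gave 2 higher and 6 lower, with a background of 19.2% higher and 21.5% lower.

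The mitochondrial rRNAs, which are no members and belong to a list of mitochondrial RNA genes, were lower in TDE-treated BMDCs in every fit shown here. mt-Rnr1, the small rRNA, stood at 786 and 690 CPM in CTR replicates 2 and 3, 671, 709 and 955 CPM in NE and 338, 321 and 303 CPM in TDE libraries, and mt-Rnr2, the large rRNA, at 1097 and 971 CPM, then 964, 1004 and 1290 CPM, then 491, 455 and 459 CPM. All TDE libraries lay below all others. mt-Rnr1 fell by 1.57 ± 0.28 (adjusted p = 0.00727) and mt-Rnr2 by 1.55 ± 0.29 (adjusted p = 0.00877) against CTR in all 9 libraries, and their log2 fold changes were -1.21 ± 0.14 and -1.15 ± 0.12 without CTR replicate 1. Both oligo(dT) and random primers were used for the cDNA, and the sources used here do not state how rRNA was removed.

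With copies added, the share of all reads on mitochondrial protein genes was 3.50% and 3.44% in CTR replicates 2 and 3, 3.56%, 3.62% and 3.65% in NE and 3.52%, 3.23% and 3.44% in TDE libraries, with intervals at most 0.0175 percentage points wide, and 1.90% in CTR replicate 1. All 3 NE libraries lay above all TDE and CTR libraries, and the TDE libraries overlapped CTR replicates 2 and 3. Per 100 reads on protein genes and their copies, mt-Rnr1 and mt-Rnr2 had 2.22 to 2.44 reads in TDE libraries, 4.85 to 6.33 in NE and 5.18 to 13.5 in CTR libraries. These shares are descriptions without a test.

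No member passed in NE-treated against CTR BMDCs in edgeR. Of the 80 nuclear members, 0 passed in edgeR with all 9 libraries, where 4 had an unadjusted p-value under 0.05 and 0% of all genes passed, and 0 passed without CTR replicate 1, where 1 did and 0.0196% of all genes passed. DESeq2 called 0 nuclear members, where it called 0.0399% of all genes, and voom called 0. With length offsets, 0 were called with all 9 libraries or without CTR replicate 1, where 0.085% of all genes passed in the latter. The median of the nuclear members was -0.95 with CTR replicate 1 and 0.04 without it. Of the mitochondrial genes with copies added, 0 passed with or without CTR replicate 1 and 0 had an unadjusted p-value under 0.05, and the median without it was 0.08. DESeq2 called the deposited row of mt-Co2 lower in NE-treated BMDCs.

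Genes around the chain are given from lists by their counts in TDE-treated against CTR BMDCs without CTR replicate 1, with a background of 16.4% of all genes higher and 18% lower. Only some called genes of a list are named, often from 1 direction, so the counts and not the names give the balance of directions. Of 19 tested enzymes of the tricarboxylic acid cycle and its entry, 5 were higher and 2 lower. Pdk1, the kinase that switches off pyruvate dehydrogenase, rose by 1.65 ± 0.08 (adjusted p = 1.6e-06) and Cs, citrate synthase, by 0.35 ± 0.07 (adjusted p = 0.00345), and both also passed with all 9 libraries. Among 25 tested regulators of mitochondrial biogenesis and mitochondrial gene expression, 2 were higher and 7 lower. Lrpprc, which stabilizes mitochondrial mRNAs, fell by 0.66 ± 0.09 (adjusted p = 0.000455), Polg, the mitochondrial DNA polymerase, by 0.59 ± 0.09 and Polrmt, the mitochondrial RNA polymerase, by 0.42 ± 0.10.

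Of 50 tested assembly factors, 3 were higher and 4 lower, and Coa7, a factor of complex IV, fell by 0.86 ± 0.15 (adjusted p = 0.00226). Of 78 tested mitochondrial ribosomal proteins, 2 were higher and 4 lower, with a median of -0.10, and of 20 carriers and subunits outside the name rule, 3 were higher and 3 lower. Of 20 membrane proteins used as markers of mitochondrial mass, 3 were higher, among them Vdac1, a channel of the outer membrane, by 0.57 ± 0.10 (adjusted p = 0.002), and 3 lower, among them Tomm40, the import pore, which fell by 0.79 ± 0.11 (adjusted p = 0.00061).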

How the data were processed

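Total RNA was extracted from the BMDCs with TRIzol. The authors deposited estimated counts per gene, one column per library, which need not be whole numbers. The submitters' processing notes name TopHat2 2.1.1, DESeq2 1.24.0 and R 3.3.1. The counting program, genome build, annotation and use of strand are not given in the sources used here. The table's columns of group means were not used, and its column of gene length was.

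Counts were rounded to whole numbers. The table had 57238 entries, of which 1702 were assembled loci without a name that held 0.372% to 0.681% of the reads and stayed in the fit. edgeR 4.0.16 in R 4.3.3 was run with filterByExpr, TMM and the quasi-likelihood test on the 9 libraries with group as the only term, and p-values were adjusted by Benjamini-Hochberg over all tested genes, with a threshold of 0.05 and no fold limit. SEs were taken from the log2 fold change and its F statistic. Length offsets were a loess curve (span 0.3) of each library's deviation on gene length. Nuclear copies were found with blastn 2.17.0 among GENCODE vM21 transcripts (GRCm38), and positions are of that annotation. Promoters are RefSeq's for GRCm38.p6. Only the edgeR test of TDE against CTR, with and without CTR replicate 1, was run on simulated counts. Those counts held no trend with gene length and no library that stood apart, and the other steps were not simulated.

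Groups followed the labels. Named were every mitochondrial protein gene, the called nuclear members with the largest changes, the highest and lowest member of each complex per length, and fixed isoforms and catalytic subunits. The members and lists were chosen with earlier results of these data known. Totals of 17469782 to 21092943 reads put 3 reads at 0.135 to 0.190 CPM after TMM normalization. Alternatives were DESeq2 1.42.0, voom (limma 3.58.1), other filters and factors, a replicate block, pairs of groups alone, length offsets, leaving out each library and adding the copies.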

Additional observations from a re-analysis of the deposited data

How the results depend on the processing

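Calls of nuclear subunits in TDE-treated against CTR BMDCs depended on the setting: 0 in the fit to all 9 libraries, 4 with DESeq2, 11 with length offsets, 14 with voom (5 higher and 9 lower), and without CTR replicate 1 also 27 with length offsets (22 higher and 5 lower), 5 with library totals alone (1 higher and 4 lower) and 1 with the replicate block (higher). Their median log2 fold change was -0.143 with length offsets, -0.0729 with voom, and without CTR replicate 1 0.114, -0.0471 and 0.0791 under the same 3 settings. Against NE the counts were 7 with length offsets, 8 from the pair of groups alone (3 higher and 5 lower), 33 with voom (29 higher and 4 lower), and without CTR replicate 1 34 (26 higher and 8 lower), 12 (3 higher and 9 lower) and 5 (3 higher and 2 lower). Medians of NE-treated against CTR BMDCs without CTR replicate 1 were 0.0214, 0.0118 and 0.0747. Leaving out 1 library gave 0 to 24 calls and medians of -1.33 to 0.026 for TDE against CTR, with 24 lower without CTR replicate 3 and 5 calls without CTR replicate 1, 0 to 7 calls and medians of -0.11 to 0.23 against NE, with 7 without CTR replicate 1 and the median of 0.23 without NE replicate 3, and 0 calls with medians of -1.31 to 0.0354 for NE against CTR. The cause was not tested. For voom, the pair of groups alone, library totals and the replicate block, the share of all genes called is not given here. The same holds for leaving out a library other than CTR replicate 1. Those counts therefore cannot be set against a background and are no result about the members.

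Mitochondrial rows in TDE-treated against CTR BMDCs gave 2 calls in the fit to all 9 libraries, 1 each with length offsets, library totals alone, median-ratio factors, no filter or copies added, 0 from the pair of groups alone and 7 with voom. Without CTR replicate 1 they gave 7 with length offsets, 7 with library totals, 5 with copies and 7 with copies and length offsets. The median was -0.48 with voom and -0.57 without CTR replicate 1 on library totals. Against NE the counts were 2 with DESeq2, 2 with length offsets, 8 from the pair alone, 11 with voom and 0 with copies, and without CTR replicate 1 they were 7 with length offsets, 8 with library totals, 6 with copies and 7 with copies and length offsets. The median with copies was -0.24, and without CTR replicate 1 -0.25, or -0.16 with length offsets. DESeq2 gave 1 call for NE against CTR. Leaving out 1 library gave 0 to 6 calls against CTR, with 6 without CTR replicate 1, 1 without CTR replicate 2 or TDE replicate 1, and 0 without any NE replicate or TDE replicates 2 or 3, and medians of -0.496 to -0.062. Against NE it gave 0 to 8, with 0 without NE replicate 2 and 8 without CTR replicate 1, and medians of -0.44 to -0.35. For NE against CTR it gave 0, with medians of 0.05 to 0.37. Counts with voom, the pair of groups alone, library totals, median-ratio factors or no filter again have no share of all genes beside them. Nor do those with copies and length offsets together, or with a library other than CTR replicate 1 left out. Those counts cannot be set against a background. The share of reads on mitochondrial protein genes as deposited was 0.598 percentage points higher in TDE than CTR libraries and ranged from -0.011 without CTR replicate 1 to 0.932 without CTR replicate 3.

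The labels do not say whether equal replicate numbers mark paired libraries. Over 9 same-number pairs, deviations correlated at -0.659 to 0.245, and 1 pair exceeded 0.1. In both other groups at once, 0 libraries correlated best with their own number. With 3 libraries per group, of which CTR replicate 1 stood apart, these values cannot settle whether the libraries are paired. With the replicate block, 0 nuclear subunits passed in each comparison of 9 libraries, and of the mitochondrial rows 0 against CTR and 1 against NE. Without CTR replicate 1 the block gave 5 mitochondrial calls against CTR and 7 against NE, and 4 and 5 with copies added, where the median against NE was -0.24.

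Directions changed against the fit to all 9 libraries, with a call in either fit, for 10 gene results. In TDE against CTR, Cox5a (-0.45) was 0.49 with length offsets, 0.38 with voom and 0.61 with length offsets without CTR replicate 1. Under that last setting Cox7a2 was 0.45, Cox7a2l 0.27, Cox7b 0.26 and Sdhb 0.19. Cox8a (-0.16, and -0.41 without CTR replicate 3) was 0.64 with length offsets, 0.29 with voom, and without CTR replicate 1 0.38, or 0.49 with length offsets. Ndufv3 (-0.69, and -1.09 without CTR replicate 3) was 0.62 with voom, and without CTR replicate 1 0.72, 0.76 with length offsets, 0.65 with library totals and 0.78 with the block. mt-Nd4l (-0.92) was 0.11 with copies added. In TDE against NE, without CTR replicate 1 and with copies added, mt-Co2 (2.11) was -1.6e-05 and, with length offsets too, mt-Co3 (1.28) was -0.16. Of 3122 single-gene values under alternatives, 2612 kept direction and side of the threshold, and 255 changed sign without a call in either fit.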
